A study of Drosophila melanogaster with 2 samples.

Results

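The respiratory chain and ATP synthase of mitochondria are built from proteins of the nuclear and the mitochondrial genome. The nuclear genes among them were taken as all protein-coding genes whose symbol in Ensembl release 115 (BDGP6.54) starts with ND-, COX4 to COX8, UQCR, ATPsyn or SdhA to SdhD. The rule found 87 of the 13945 protein-coding genes on the chromosome arms, and it used no measured value. Of these, 63 were main copies, with 34 in complex I, 4 in complex II, 6 in complex III, 8 in complex IV and 11 in complex V. The other 24 were duplicates, named after a main copy with an L added. ND-MNLL also ends in L but is a main copy.

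Chromatin immunoprecipitation followed by sequencing (ChIP-seq) mapped the transcription factor Gcm (glial cells missing) in Drosophila melanogaster. The material was whole embryos of both sexes aged 0 to 16 hours, from a transgenic gcm-GFP line in which Gcm carries GFP at its C-terminus, and an antibody against GFP was used. There was 1 group, with 2 biological replicates numbered 1 and 3 that share a donor label, and no other genotype, stage or treatment was analysed here. The data were 4 peak lists on the dm6 assembly: 1 for each replicate, 1 called on both together (the pooled list) and 1 kept after thresholding on the irreproducible discovery rate (IDR). The first 3 held 30000 peaks each. The IDR-thresholded list held 5707, all of them the strongest peaks of the pooled list, down to a signal of 190.5. Read depth is unknown, because a peak list holds no library totals. A gene was called bound in a list when a peak summit lay within 500 bp of any of its annotated transcript starts. Peak height is the signal value given by the authors' peak caller, which has a scale of its own in each list. The height given for a gene in a list is that of the highest peak with a summit in the window, and distances are those of the pooled summit. In the 43 members with a summit in the pooled list and in both replicates, the replicates' summits were a median of 60 bp apart, with the largest gap, 705 bp, in COX7AL2. Whole embryos mix all cell types, so a peak cannot be placed in a tissue, and a low peak in many cells cannot be told apart from a high one in few.

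As background, complex I (NADH dehydrogenase) and complex II (succinate dehydrogenase) pass electrons to ubiquinone, complex III (cytochrome bc1) passes them on to cytochrome c, and complex IV (cytochrome c oxidase) passes them to oxygen. Complexes I, III and IV pump protons, and complex V, the ATP synthase, uses the gradient to make ATP. The main copies are used in nearly all tissues. Most of the Drosophila duplicates are known for expression in the testis. Gcm is known for switching neural precursors to the glial fate and for its part in embryonic blood cell development.

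The DNA under a summit is shown for 7 genes that the results below return to: the highest peak of all members (ND-ASHI), 4 other main copies of complexes I, II, IV and V, and the duplicates whose peaks held a Gcm word. Each run is 201 bases of the RefSeq Release 6 genome (dm6), from 100 bases before to 100 after the highest pooled summit, read 5′ to 3′ on the strand of the gene. Capitals mark any of 9 words searched on both strands. These were the Gcm word (ATACGGGC, ATACGGGT, ATGCGGGC or ATGCGGGT), the DRE of Dref (TATCGATA), the M1BP word (GGTCACAC), the ERR word (TCAAGGTCA), the ewg/NRF1 word (GCGCATGC), the GAGA word (GAGAG), the E-boxes CACGTG and CAGCTG, and the GATA word (AGATAA, then AGATAG, then TGATAA, then TGATAG). The CAGCTG and GATA words can share letters. The windows lie at chrX:6679247-6679447, minus strand, chr2L:6062771-6062971, minus strand, chr3R:11209904-11210104, minus strand, chr3L:17425217-17425417, plus strand, chr3R:14326704-14326904, plus strand, chr3L:16566568-16566768, plus strand, and chr3R:10121458-10121658, plus strand. Annotated exons covered 19 bases of the UQCR-6.4L window, 1 base of the COX7B window and 0 bases of the other 5.
ND-ASHI: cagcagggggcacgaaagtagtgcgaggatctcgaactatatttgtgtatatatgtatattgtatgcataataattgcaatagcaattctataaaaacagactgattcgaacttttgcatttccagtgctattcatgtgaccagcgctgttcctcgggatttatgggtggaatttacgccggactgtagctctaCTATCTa
ND-51: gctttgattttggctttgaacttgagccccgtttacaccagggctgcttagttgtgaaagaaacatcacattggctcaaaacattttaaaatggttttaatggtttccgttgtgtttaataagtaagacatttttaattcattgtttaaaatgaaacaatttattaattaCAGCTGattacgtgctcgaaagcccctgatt
SdhC: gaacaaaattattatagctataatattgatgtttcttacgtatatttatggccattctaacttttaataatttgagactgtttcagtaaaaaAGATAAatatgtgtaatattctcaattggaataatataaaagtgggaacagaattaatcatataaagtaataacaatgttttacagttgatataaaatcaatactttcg
COX7B: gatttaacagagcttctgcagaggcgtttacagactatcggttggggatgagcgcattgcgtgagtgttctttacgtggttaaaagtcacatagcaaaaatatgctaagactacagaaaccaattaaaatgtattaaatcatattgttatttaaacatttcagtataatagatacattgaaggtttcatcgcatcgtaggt
ATPsynE: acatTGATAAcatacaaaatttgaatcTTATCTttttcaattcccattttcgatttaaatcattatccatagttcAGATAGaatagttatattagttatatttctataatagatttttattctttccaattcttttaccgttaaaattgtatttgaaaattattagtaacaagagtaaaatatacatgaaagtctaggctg
UQCR-6.4L: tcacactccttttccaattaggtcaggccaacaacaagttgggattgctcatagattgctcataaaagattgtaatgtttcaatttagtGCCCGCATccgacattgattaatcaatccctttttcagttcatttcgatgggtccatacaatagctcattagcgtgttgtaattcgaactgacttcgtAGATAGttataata
ATPsynepsilonL: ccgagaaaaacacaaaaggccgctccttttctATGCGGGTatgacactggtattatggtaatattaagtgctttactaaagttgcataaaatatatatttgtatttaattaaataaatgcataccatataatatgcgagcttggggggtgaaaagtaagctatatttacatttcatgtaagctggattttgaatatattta
The windows of main copies held GATA words (ND-ASHI, SdhC and ATPsynE), a CAGCTG word (ND-51) or none of the 9 (COX7B). The Gcm words, read on the opposite strand in UQCR-6.4L (as GCCCGCAT) and on the gene's strand in ATPsynepsilonL (ATGCGGGT), are both in duplicates.

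Gcm peaks lay at the starts of 15 of the 87 genes in the IDR-thresholded list, or 17.2% (95% Clopper-Pearson interval 9.98 to 26.8), against 18.9% of all protein-coding genes. All 15 were main copies, which makes 15 of 63 (23.8%, interval 14.0 to 36.2), while 0 of the 24 duplicates were bound (upper bound 14.2%). In the strongest 5707 peaks of each replicate the share of main copies was 22.2% ± 4.49 (SD, n = 2). Replicate 1 bound 12 main copies and 0 duplicates there, with 19.4% of all genes bound. Replicate 3 bound 16 main copies and 1 duplicate, UQCR-6.4L, with 19.0% of all genes bound. The share of main copies in the IDR-thresholded list was thus close to that of all genes and its interval holds it. These intervals cover counting error over genes only, and with 1 group there was no contrast to test.

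The full pooled list, which goes on to weaker peaks, gave a wider gap between the copies. It bound 42 of 63 main copies (66.7%, interval 53.7 to 78) and 3 of 24 duplicates (12.5%, interval 2.66 to 32.4), against 41.4% of all genes. The full list of replicate 1 bound 46 main copies and 3 duplicates, with 44.2% of all genes, and that of replicate 3 bound 42 and 4, with 42.4% of all genes. The intervals of main copies and duplicates do not overlap in the pooled list, and the share of all genes lies between them. Main copies also had more starts to be counted, with a median of 2 annotated starts per gene against 1 in duplicates and 1 over all genes, and the part of this in the shares was not tested. From a gene's start, the nearest pooled summit lay a median of 114 bp away in main copies, 8089.5 bp in duplicates and 1624 bp over all genes. The nearest IDR-thresholded summit lay a median of 3020 bp, 10583 bp and 7087 bp away.

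**Figure D1:**
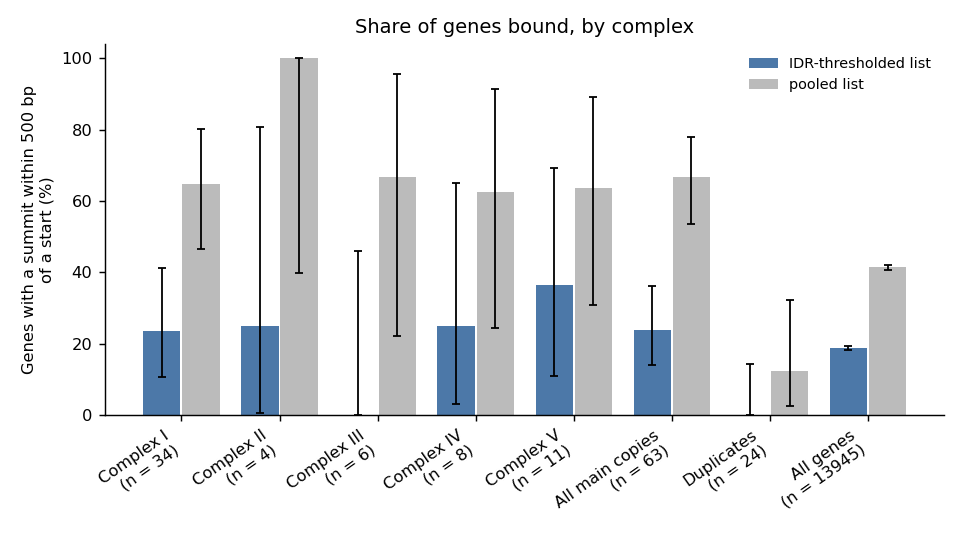
Share of genes (vertical axis, %) with a summit within 500 bp of a start, for main copies by complex, all main copies, duplicates and all protein-coding genes; blue bars are the IDR-thresholded list, grey bars the pooled list, and error bars are 95% Clopper-Pearson intervals over genes. Duplicates stand at 0% and 12.5%, main copies at 23.8% and 66.7%, and all genes at 18.9% and 41.4%.

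Many respiratory chain genes share a promoter region with another gene, so 1 peak can be counted for both. Another gene's start lay within 500 bp in 60.3% of main copies, 12.5% of duplicates and 30.9% of all genes. Among main copies with such a neighbour, 12 of 38 (31.6%, interval 17.5 to 48.7) were bound in the IDR-thresholded list, against 31.3% of all genes with a neighbour. Among those without, 3 of 25 (12.0%, interval 2.55 to 31.2) were bound, against 13.3% of all genes without one. Of the duplicates without a neighbour, 0 of 21 (upper bound 16.1%) were bound in that list, and this interval also holds the 13.3%. Within each class the main copies were thus bound about as often as other genes. In the pooled list the same split gave 25 of 38 (65.8%) with a neighbour, against 57.4% of all such genes, and 17 of 25 (68.0%, interval 46.5 to 85.1) without, against 34.2%. Of the duplicates without a neighbour, 2 of 21 (9.52%, interval 1.17 to 30.4) were bound in the pooled list. The gap between main copies and duplicates in the pooled list was therefore also present among genes with no neighbouring start.

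Complex I held 8 of the 15 genes bound in the IDR-thresholded list, out of 34 main copies (23.5%, interval 10.7 to 41.2). In the pooled list 22 of 34 (64.7%) were bound. All protein-coding genes stood at 18.9% and 41.4%. ND-ASHI, an accessory subunit of the membrane arm, had the highest peak of all members (chrX:6679224-6679525), with a signal of 568 in the pooled list, 303 in replicate 1 and 274 in replicate 3. Its summit lay 229 bp upstream of the start, and the start of Fum1, which encodes the citrate cycle enzyme fumarase, also lay within 500 bp. ND-MWFE, a small accessory subunit, followed with 547, 281 and 250 (chr2R:13158373-13158623), and the start of TppII, at 36 bp, was nearer to the summit than its own at 185 bp. ND-24, an iron-sulphur subunit of the NADH-oxidising module, had 398, 201 and 188, with the start of corolla within 500 bp. ND-42, another accessory subunit, had 368, 212 and 156, but its summit lay 5 bp from the start of Cchl and 224 bp from that of ND-42. The 4 highest complex I peaks were thus all at starts shared with another gene.

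The remaining bound genes of complex I had lower peaks. ND-MNLL had a pooled signal of 285, with 160.1 in replicate 1 and 121 in replicate 3, and its start lay 84 bp from the summit, as did that of CG45089. ND-51, which carries the flavin that accepts electrons from NADH, had 273, 149.7 and 128 and shared its peak with CG13994. ND-SGDH, which the rule for named genes did not pick, had 268, 149 and 119 and shared its peak with RhoGAP68F. ND-20, the subunit with the last iron-sulphur cluster before ubiquinone, had 211, 116 and 91.8, and had no neighbouring start. All 8 were in the strongest 5707 peaks of both replicates. Of the other core subunits, named here for their role after their values were seen, ND-75 had a pooled signal of 141, and ND-49, ND-30 and ND-23 had no summit in any of the 4 lists. The catalytic core of complex I was therefore split between genes with a peak and genes with none.

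Complex II had a pooled summit at all 4 main copies, against 41.4% of all genes. In the IDR-thresholded list 1 of 4 (25.0%, interval 0.631 to 80.6) was bound, against 18.9%. SdhC, a membrane anchor with the ubiquinone site, had a signal of 219 in the pooled list, 90.1 in replicate 1 and 114 in replicate 3 (chr3R:11209792-11210215), 155 bp upstream of its start, and the start of Tctp lay within 500 bp. SdhA, the flavoprotein that oxidises succinate, had 137, 91.1 and 51.6, SdhB, the iron-sulphur subunit, had 116, 67.2 and 43.6, and SdhD, the second anchor, had 119, 92.9 and 42.5. SdhC was the highest of the 4 in replicate 3. In replicate 1 it stood at 90.1 beside 91.1 in SdhA and 92.9 in SdhD, values too close to give an order.

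Complex III had no main copy bound in the IDR-thresholded list, with 0 of 6 (upper bound 45.9%), against 18.9% of all genes. In the pooled list 4 of 6 (66.7%) were bound, against 41.4%. UQCR-14, a subunit that takes part in ubiquinone binding, came closest, with 189 in the pooled list, 102 in replicate 1 and 88.1 in replicate 3, 30 bp from its start and just under the lowest IDR-thresholded signal. UQCR-Q had 98.8, 56.7 and 52.9, UQCR-C2, a core protein, had 81.4, 42.0 and 39.5, and UQCR-6.4 had 63.4, 29.9 and 36.1. UQCR-C1, the other core protein, and UQCR-11 had no summit in any list. With 6 genes, a share like that of all genes could not be told from 0.

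Complex IV had 2 of 8 main copies bound in the IDR-thresholded list (25.0%, interval 3.19 to 65.1) and 5 of 8 (62.5%) in the pooled list. The shares of all genes were 18.9% and 41.4%. COX5A, a subunit of the matrix side, had the third highest peak of all members, with 462 in the pooled list, 301 in replicate 1 and 154 in replicate 3 (chr3R:11819339-11819570), and the start of glo lay 16 bp from the summit against 77 bp for COX5A. COX7B, a small membrane subunit, had 274, 189 and 93.8, and the start of Sec3 was again the nearer, at 100 bp against 160 bp. These were the bound genes in which replicate 1 was highest over replicate 3, and their summits in the replicates were 48 and 99 bp apart. COX7C had 147, 69.7 and 111 and COX5B had 98.8, 40.8 and 75.9. Their summits in the replicates were 236 and 233 bp apart, on opposite sides of the start. COX6B had 46.6 in the pooled list, 178 bp upstream, and no summit in replicate 3. In replicate 1 it had 122, 38 bp downstream and outside the pooled peak. COX7A had 87.0 in replicate 1 and none in the other lists. COX4 and COX8 had no summit in any list. Replicate 1 was thus the higher in the bound pair and the lower in COX7C and COX5B, where the replicates' heights come from different positions.

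Complex V had 4 of 11 main copies bound in the IDR-thresholded list (36.4%, interval 10.9 to 69.2) and 7 of 11 (63.6%) in the pooled list. All genes were bound at 18.9% and 41.4%, and those with a neighbouring start, as 7 of the 11 had, at 31.3% and 57.4%. ATPsynC, the subunit of the rotating membrane ring, had 247 in the pooled list, 148 in replicate 1 and 113 in replicate 3 (chr3R:31219536-31219652), 21 bp from its start. ATPsynO, part of the stalk that holds the catalytic head still, had 242, 109 and 133, 19 bp from its start. Neither shared its promoter with another gene. ATPsynF had 204, 109 and 105 (chr2R:24599666-24600089) with the start of CG3548 within 500 bp, and ATPsynE, a membrane subunit known for joining the synthase into dimers, had 194, 98.5 and 123 with the start of Afti nearer to the summit. These last 2 were the members just inside the IDR threshold, and UQCR-14 and the duplicate UQCR-6.4L, at 189 and 173, were just outside it. ATPsynO, ATPsynF and ATPsynE, with SdhC, were the bound genes missing from the strongest 5707 peaks of replicate 1, so complex V had 1 gene there and 4 in replicate 3.

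Among the other genes of complex V, ATPsynCF6 had a pooled signal of 132, ATPsynD 129 and ATPsyngamma, the rotating central shaft, 120.1. ATPsynbeta, the catalytic subunit, and ATPsyndelta had a summit in replicate 1 alone, at 34.2 and 29.2. ATPsynG had one in replicate 3 alone, at 21.3, and ATPsynB none. These single-replicate peaks stood below the median signal of their lists, 50.9 in replicate 1 and 42.6 in replicate 3.

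**Figure D2:**
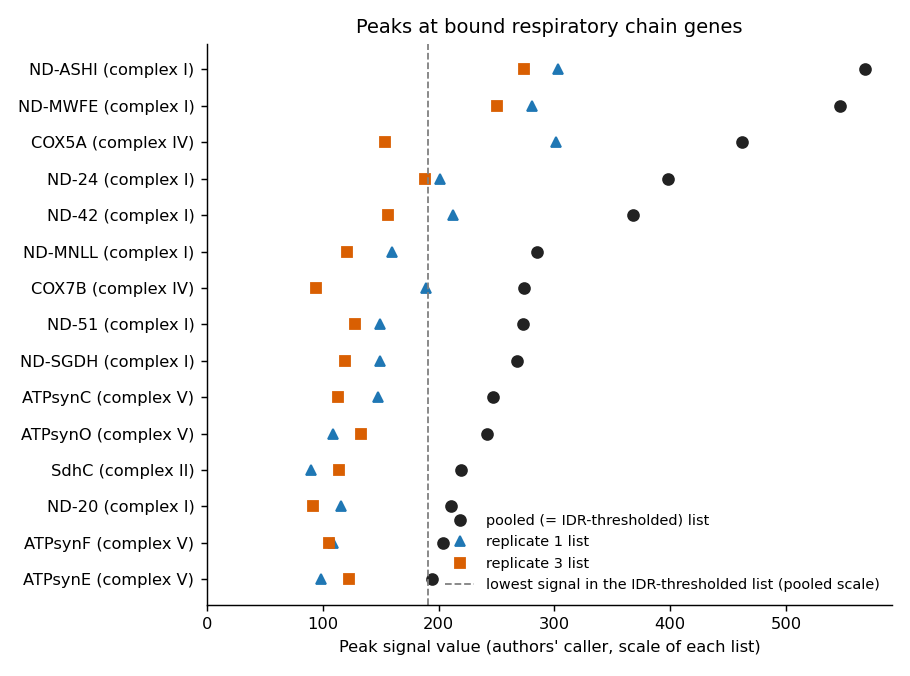
Signal (horizontal axis, scale of each list) of the highest peak within 500 bp of a start, for the 15 members bound in the IDR-thresholded list, ordered by pooled signal; black circles are the pooled list, blue triangles replicate 1 and orange squares replicate 3, and the dashed line is the lowest IDR-thresholded signal, which applies to the pooled values. ND-ASHI and ND-MWFE, at 568 and 547, stand above the others, and in ATPsynO, SdhC and ATPsynE replicate 3 exceeds replicate 1.

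Heights of the 15 bound genes ran from 194 to 568 with a median of 273, against a median of 335 over the 2633 bound genes, and 5 of the 15 exceeded that median. Their ranks among pooled peaks ran from 890 to 5568, with a median of 3315 against 2368 for all bound genes. In the pooled list the median was 139 in bound main copies against 175 over all bound genes. The highest, ND-ASHI and ND-MWFE, stood at percentiles 77.9 and 76.5 of all bound genes by height, and ATPsynE at 1.79. Both replicates held 11 of the 15 in their strongest 5707 peaks, and 2091 of the 2633 for all bound genes. Replicate 1 exceeded replicate 3 by a median factor of 1.17, from 0.787 to 2.01, against 1.27 over all bound genes.

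Positions relative to the start were close. Of the 15 summits, 13 lay upstream of the gene's own start (86.7%, against 79.5% of all bound genes) and 15 lay within 250 bp of it (100%, against 77.3%). The median distance was 110 bp, against 145 bp. For 10 of 15 genes (66.7%, against 77%) the gene's own start was the nearest to the summit, and 12 of 15 summits (80.0%, against 48.0%) had another gene's start within 500 bp. Respiratory chain peaks thus lay nearer to starts than those of bound genes in general, and a larger share stood beside another start, as counts with no test. The replicates' summits were a median of 40 bp apart, against 24 bp over all bound genes, with 163 bp as the largest gap in the 15, in ATPsynE.

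**Figure D3:**
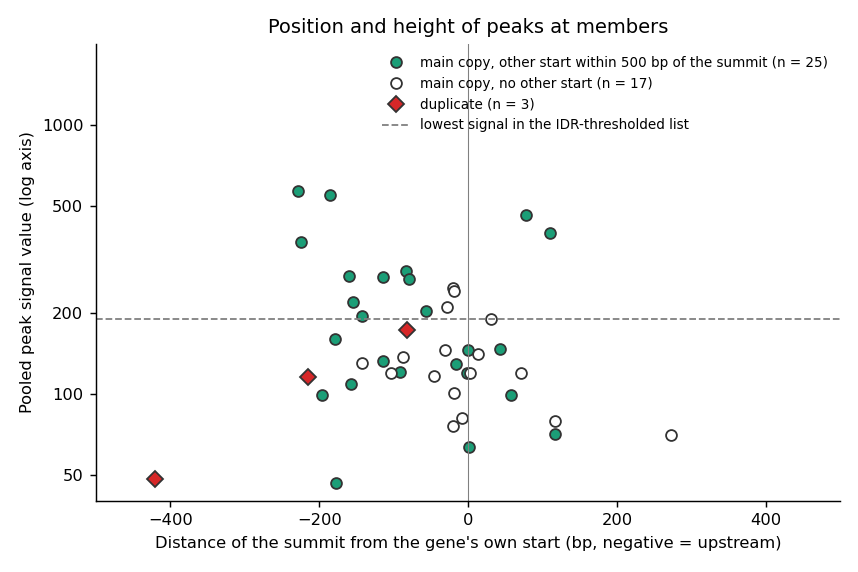
Height (vertical log axis, pooled signal) against distance from the gene's own start (horizontal axis, bp, negative upstream) for the 45 members with a pooled summit; green circles are main copies whose summit has another gene's start within 500 bp, open circles those with none, red diamonds duplicates, and the dashed line is the lowest IDR-thresholded signal. Above the line stand 12 green and 3 open circles and no duplicate, and COX7AL2, at 420 bp upstream, is the farthest from its start.

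The remaining 21 main copies had no summit in the pooled list, and 15 of these had none in either replicate list. Beside those named above, the 15 include ND-B17.2, ND-PDSW, ND-B12, ND-19, ND-MLRQ, ND-AGGG and ND-18, all named as subunits of complex I. The nearest IDR-thresholded summit lay 391133 bp from ND-MLRQ, 2028061 bp from ND-AGGG and 2172516 bp from UQCR-11, all on 3L. There the lack of such summits covers a wide region and not the gene alone. ND-B15 had a summit in replicate 1 alone, at 53.9, and ND-B17 in replicate 3 alone, at 63.5. The members on chromosome 4, ND-49 and ATPsynbeta, had no pooled summit. By arm, main copies were bound in the IDR-thresholded list at 6 of 13 on 3R, 4 of 12 on X, 2 of 13 on 3L, 2 of 11 on 2R, 1 of 12 on 2L and 0 of 2 on chromosome 4. For all genes the arm shares were 20.1%, 17.4%, 19.8%, 18.6%, 18.1% and 10%. The 3R share of 46.2% had an interval from 19.2 to 74.9, so with 13 genes the arms were not resolved.

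Each duplicate was set beside the gene it was copied from or named after. The 24 duplicates have 21 such partners, of which 18 are members and 3 have names of their own: levy (partner of COX6AL and COX6AL2), cype (of COX6CL) and sun (of ATPsynepsilonL). In 8 pairs the partner was bound in the IDR-thresholded list and the duplicate was not, in 16 pairs neither was bound, and in 0 pairs was the duplicate bound. The partners bound there were ND-24, ND-51 (for ND-51L1 and ND-51L2), SdhC, ND-20, levy, at 316 in the pooled list, 164 in replicate 1 and 136 in replicate 3, and cype, at 257, 153 and 107. The levy summit lay nearer to the start of wmd, at 34 bp, than to that of levy, at 122 bp. That of cype lay nearer to the start of Ncoa6, at 266 bp, than to that of cype, at 278 bp. In the pooled list the partner alone was bound in 15 pairs, both copies in 2, the duplicate alone in 1 and neither in 6. Duplicates of the partners with the highest peaks were thus without a pooled peak.

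The exceptions were below the IDR threshold. UQCR-6.4L, a copy of a small complex III subunit, had a signal of 173 in the pooled list, 107 in replicate 1 and 92.8 in replicate 3, above its partner UQCR-6.4 at 63.4, 29.9 and 36.1. Its pooled summit lay 82 bp upstream of the start and that of replicate 1 at 52 bp, while that of replicate 3 lay 323 bp upstream, outside the pooled peak. The call in the strongest 5707 peaks of replicate 3 rests on that other position. The nearest IDR-thresholded summit lay 992 bp away. ATPsynepsilonL had 115, 75.6 and 44.8, above sun, the epsilon subunit, at 62.1, 34.2 and 21.6, but its summit was nearer to gammaSnap2, at 158 bp, than to its own start, at 215 bp. COX7AL2 had 48.3 in the pooled list, 420 bp upstream, 37.0 in replicate 3, 320 bp upstream, and 33.4 in replicate 1, 385 bp downstream, so these were not 1 peak. Its partner COX7A had no pooled summit but a higher peak in replicate 1, at 87.0. ND-B14.5AL had a summit in replicate 3 alone, at 32.8. UQCR-6.4L and ATPsynepsilonL are the pair of duplicates whose windows, printed above, hold a Gcm word.

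Duplicates stayed without a peak even beside a partner that had one. In 7 pairs both copies lie on the same arm. The nearest starts of COX7CL and COX7C on 2R lay 867 bp apart, and those of COX5BL and COX5B on 2L 1631 bp, and in both pairs the partner had a pooled summit (147 and 98.8) and the duplicate had none within 500 bp. Starts of COX7AL and COX7A lay 2626 bp apart on 3R and neither had a pooled summit. In main copies with a duplicate, 4 of 18 (22.2%) were bound in the IDR-thresholded list, and in those without, 11 of 45 (24.4%), with 66.7% and 66.7% in the pooled list, so the shares differed by less than their intervals.

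**Figure D4:**
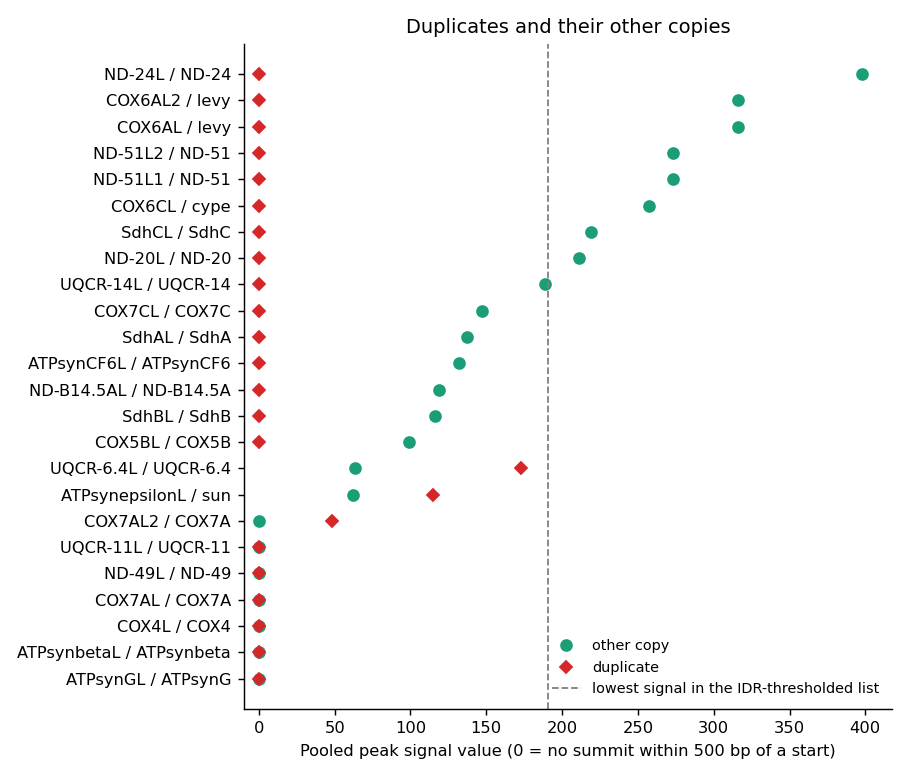
Pooled signal (horizontal axis, 0 where no summit lies within 500 bp of a start) of each of the 24 duplicates (red diamonds) and its partner (green circles), with the lowest IDR-thresholded signal as a dashed line. In 8 pairs the partner stands right of the line, no duplicate does, and in UQCR-6.4L, ATPsynepsilonL and COX7AL2 the duplicate is the higher copy.

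The words under the summits were counted within 100 bp of the highest pooled summit. The Gcm word was found at 0 of the 15 members bound in the IDR-thresholded list, against 87 of 1998 peaks of all bound genes (4.35%). Over the pooled list it was found at 2 of 45 members (4.44%, against 3.26%), which are the duplicates printed above. In UQCR-6.4L the word ended 4 bp from the summit and in ATPsynepsilonL 61 bp from it. The lack of a match says only that these letters are not in the window. Promoters were taken from 250 bases before to 50 after the outermost annotated start of each gene. Words near a gene's other starts, such as CAGCTG in the summit window of ND-13A, were thus not counted. In these promoters the Gcm word was found in 1 of 63 main copies (ND-49), 2 of 24 duplicates (COX7AL2 and UQCR-6.4L) and 0.954% of all genes.

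Words of other promoter factors set main copies beside duplicates. The M1BP word, bound by a factor of housekeeping promoters, was in 15 of 63 promoters of main copies (23.8%), 1 of 24 of duplicates (COX7AL, 4.17%) and 7.71% of all genes. The DRE was in 9 of 63 (14.3%), 0 of 24 and 9.37%, and the CAGCTG E-box in 19 of 63 (30.2%), 2 of 24 (8.33%) and 17.7%. The GAGA word went the other way, with 10 of 63 (15.9%) main copies, 10 of 24 (41.7%) duplicates and 29.8% of all genes. So did the GATA word, with 23 of 63 (36.5%), 14 of 24 (58.3%) and 46.8%, and the CACGTG E-box, with 2 of 63 (3.17%), 2 of 24 (8.33%) and 4.24%. The share was thus highest in main copies for the first 3 words and highest in duplicates for the last 3, as a description with no test. Main copies had a median of 2 annotated starts against 1 in duplicates and 1 over all genes, so more of their starts went unsearched. The part of this in the shares was not tested. Within 100 bp of the 15 bound summits the M1BP word was at 0 (against 3.55% of all bound peaks), the DRE at 0 (against 5.46%), the GAGA word at 1 (ATPsynF, 6.67%, against 26.5% of all bound peaks), CAGCTG at 3 (ATPsynO, ND-42 and ND-51, 20.0%, against 12.0%) and GATA at 7 (46.7%, against 34.1%). For GATA the order turned within 250 bp (53.3% against 61.1%) and in promoters of bound genes (6 of 15, against 43.4%). For CAGCTG it turned in promoters of bound genes (3 of 15, against 22.6%), but not within 250 bp (46.7% against 31.1%). In the promoters of the 15 bound members the M1BP word was in 4 (26.7%, against 11.6% of all bound genes). GC content within 100 bp of the 15 bound summits had a median of 31.3%, against 36.3% for the peaks of all bound genes. The ERR word was in 0 windows and 0 promoters of members, against 0 of 1998 peaks of all bound genes and 0.122% of all promoters. A word this rare could not tell members from other genes.

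The chain also uses proteins whose genes have names of their own. Of 9 electron carriers and subunits outside the naming rule, 5 were bound in the IDR-thresholded list (55.6%, interval 21.2 to 86.3, against 18.9% of all genes) and 8 in the pooled list (88.9%, against 41.4%). Cyt-c-d, the testis cytochrome c, had 1464 in the pooled list, 861 in replicate 1 and 596 in replicate 3, and Cyt-c-p, the main cytochrome c, had 270.2, 183 and 109.7. blw, the alpha subunit of the ATP synthase, had 377, 246 and 118. The values of levy and cype, whose summits lay nearer to another gene's start, are given above. Cyt-c1 and ox, of complex III, had 189.6 and 163 in the pooled list, and RFeSP, the Rieske subunit, a summit in replicate 1 alone. For cytochrome c, the testis copy was thus bound and had the higher peak. Of 14 assembly and carrier genes, 3 were bound in the IDR-thresholded list (21.4%, against 18.9% of all genes) and 6 in the pooled list (42.9%, against 41.4%), led by Cox17, a copper carrier for complex IV, at 400.2, 231 and 167. The adenine nucleotide carriers sesB and Ant2 were counted for 1 shared peak at 195, 122 and 68.0.

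Ribosomal protein genes are another set of housekeeping genes. In the IDR-thresholded list the share was 23.8% of respiratory chain main copies, against 20 of 73 mitochondrial ribosomal protein genes (27.4%, interval 17.6 to 39.1) and 68 of 92 cytoplasmic ones (73.9%, interval 63.7 to 82.5). The interval of the cytoplasmic class lies above that of the main copies, 14.0 to 36.2, and that of the mitochondrial class overlaps it. Median heights of bound genes were 273, 442 and 405. In the pooled list the order changed, with 66.7% of main copies, 38 of 73 mitochondrial (52.1%) and 77 of 92 cytoplasmic (83.7%) genes. All genes stood at 18.9% in the IDR-thresholded list and 41.4% in the pooled list, and those with a neighbouring start at 31.3% and 57.4%. Such a neighbour was present in 60.3% of main copies, 74.0% of mitochondrial and 40.2% of cytoplasmic genes. The part of such neighbours in these shares was not tested.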

How the data were processed

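Whole gcm-GFP embryos were profiled by ChIP-seq in 2 biological replicates. Per the file descriptions deposited with the samples, the authors called peaks on each replicate and on both together against the same control file, and derived the IDR-thresholded list from these lists, on dm6. No source used here names the aligner, the peak caller or the threshold on the IDR. The signal values (peak height) and −log10 q-values are those the authors deposited. The −log10 q-value has a ceiling, 4.28 in the pooled list, which 26 of the 45 pooled-bound members reach, so signal was used for ranking. The summit position was read from the deposited offset. Depth is unknown.

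Transcript starts came from Ensembl release 115 (BDGP6.54), and all 87 members have the same coordinates in the RefSeq Release 6 table. With several summits near a gene the highest was used. Shares have 95% Clopper-Pearson intervals (scipy 1.17.1), and means ± SD over replicates use the strongest 5707 peaks of each. No test was run, since there was 1 group. Python 3.11.15, numpy 2.4.6, pandas 2.3.3 and matplotlib 3.10.9 were used. The binding rule was checked on simulated summits near genes with 1 annotated start, so genes with several starts were not covered. The named genes were the 5 highest main copies of each complex, bound duplicates, partners of duplicates, members within 10% of the lowest IDR-thresholded signal and main copies with no pooled summit. The members and lists were chosen with earlier results of these data known. Alternatives were other windows, other lists, 1 replicate, the gene start alone, the nearest start and peak overlap.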

Additional observations from a re-analysis of the deposited data

How the results depend on the processing

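The 15 bound members became 5 in the 2853 strongest IDR-thresholded peaks and 45 in the full pooled list, and the 15 main copies became 5 and 42. With 1 replicate left out, the members ran from 12 to 17, the main copies from 12 to 16 and the duplicates from 0 to 1. The 0 duplicates became 2 within 1000 bp (UQCR-6.4L and COX7AL2), 3 in the full pooled list and 1 without replicate 1 (UQCR-6.4L). Counting only symbols that end in the letter L as duplicates gave 1, which is ND-MNLL, a main copy. A 250 bp window, the gene start alone and peak overlap each kept the counts at 15, 15 and 0, and the nearest start gave 10, 10 and 0. The ratio of median height to that of all bound genes, 0.815, ran from 0.808 to 0.930. Word counts moved with the window: within 250 bp of the 15 summits the M1BP word was at 5 (33.3%, against 10.6% of all bound peaks) and the DRE at 3 (20.0%, against 12.9%), and GAGA and CAGCTG also moved by over 1.5 times. No paired analysis was possible because there was 1 group. Complexes II, III and IV hold 4 to 8 main copies, which limits what their shares can resolve, and depth behind the peaks is unknown.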

Other observations

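Citrate cycle genes, which feed complexes I and II, were bound in the IDR-thresholded list at 4 of 14 (28.6%, interval 8.39 to 58.1) and in the pooled list at 11 of 14 (78.6%, interval 49.2 to 95.3), against 18.9% and 41.4% of all genes. In 9 of the 14 another gene's start lay within 500 bp. All genes with such a neighbour were bound at 31.3% and 57.4%, and both intervals hold these shares. Idh3g, a subunit of isocitrate dehydrogenase, had the highest of these peaks, with 1307 in the pooled list, 719.9 in replicate 1 and 592 in replicate 3. Fum1, at the peak it shares with ND-ASHI, had 568, 303 and 274, Idh3a had 391, 219 and 186, and kdn, the citrate synthase, had 216, 147 and 69.6. ScsbetaG, mAcon1 and Idh3b had no summit in any list.

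Regulators of mitochondrial genes were bound in the IDR-thresholded list at 5 of 11 (45.5%, interval 16.7 to 76.6, against 18.9% of all genes). In the pooled list 10 of 11 were bound (90.9%, against 41.4%). Another gene's start lay within 500 bp in 8 of the 11, and all genes with such a neighbour were bound at 31.3% and 57.4%. Dref, the factor that binds the DRE, had 594 in the pooled list, 336 in replicate 1 and 252 in replicate 3. mtSSB, the single-stranded DNA binding protein of mitochondria, had 344, 185 and 151, PolG2, a subunit of the mitochondrial DNA polymerase, 312, 147 and 165, ERR, the estrogen-related receptor, 296, 191 and 99.9, and srl, the fly homologue of PGC-1, 212, 100 and 112. PolG1, the catalytic subunit, had none.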
